A study of Homo sapiens with 9 samples.

Results

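The genes described here are 47 members of the ribosome assembly machinery, taken by name from the 19706 usable gene symbols of the deposited messenger RNA table. All are nucleolar genes known as targets of the MYC family of transcription factors. The rule that picked them used no measured value, but the 47 were chosen with earlier results of these data known. By role, 7 act in RNA polymerase I transcription, 7 are nucleolar scaffold proteins and regulators, 8 belong to the small nucleolar ribonucleoprotein (snoRNP) core, 12 act in small subunit assembly and 13 in large subunit assembly. They were measured by sequencing of poly(A)-selected RNA in 3 human neuroblastoma cell lines with 3 libraries each, 9 in all. Kelly and BE(2)C carry an amplified MYCN gene and SH-SY5Y does not. BE(2)C and SH-SY5Y are themselves clonal derivatives of older neuroblastoma lines. All cells were untreated, grown in the same medium and collected before they were confluent. With a single line without amplification, an effect of MYCN and any other trait of a line cannot be told apart. The labels leave unsaid whether the 3 libraries of a line were grown separately, and the p-values therefore cover only library-to-library spread, which may be technical.

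A ribosome is built in the nucleolus. RNA polymerase I copies the ribosomal DNA into a long precursor, snoRNPs guide the chemical modification of its bases, and many assembly factors fold, cut and load it with ribosomal proteins until the small and the large subunit separate. MYC and MYCN are known to bind many genes of this chain, often at the E-box CACGTG near the start of transcription, and a large nucleolus is a classical feature of MYC-driven tumour cells.

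Levels are given as scaled TPM, a transcript abundance (TPM) taken over the genes alone and adjusted by a trimmed-mean factor per library. TPM is a level per transcript length, and read depth is unknown. Levels of different genes are compared with caution, since the sources used here do not say how transcript values became gene values. Low levels, such as those of FBL, IMP4, WDR74, POLR1B and NOP2, may depend on that step, which was not tested. The labels of MYCN status were checked on MYCN itself, with a mean and SD of 5970 ± 77.6 scaled TPM for Kelly and 6050 ± 1088 for BE(2)C, against 27.3 ± 1.01 for SH-SY5Y (n = 3 each). MYC ran the other way, with means of 0.096 scaled TPM for Kelly and 0.504 for BE(2)C, against 90.4 for SH-SY5Y. All 7 noradrenergic neuroblastoma markers reached a mean of 10 scaled TPM in the amplified lines and 6 did in SH-SY5Y, where TH lay between 0 and 0.346. The 15 markers of blood, epithelial, hepatic and endothelial cells summed to between 3.37 and 14.1 scaled TPM in a library, and 6 of them were listed at 0 in all Kelly libraries, 8 in all BE(2)C libraries and 7 in all SH-SY5Y libraries. Mitochondrial genes took 16.5% to 19.8% of the gene total of Kelly libraries and 24.5% to 35.3% of BE(2)C libraries, against 17.2% to 18% of SH-SY5Y libraries. Among 61 added ERCC spike-in RNAs, which should keep the same proportions to each other in every library, the largest shift of a single RNA on the log2 scale was 1.42 for Kelly against SH-SY5Y, 1.24 for Kelly against BE(2)C and 0.181 for BE(2)C against SH-SY5Y. The part of these differences between libraries in the results below was not tested beyond the alternative scalings.

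The ribosome assembly genes were more often higher than lower in the MYCN-amplified lines relative to SH-SY5Y, with changes of widely differing size. In Kelly, 27 of the 47 rose and 6 fell relative to SH-SY5Y, where 28.1% of all 13076 genes tested rose and 27.2% fell, 55.3% in all. In BE(2)C, 23 rose and 6 fell, where 28.6% of all genes rose and 30.7% fell, 59.4% in all. A gene is said to rise or fall where limma's moderated test across all genes gave a Benjamini-Hochberg adjusted p under 0.05, and every one of the 47 was tested. The median log2 fold change of the 47 was 0.56 in Kelly and 0.49 in BE(2)C, while that of all genes was -0.005 in Kelly and -0.038 in BE(2)C. Changes of 2-fold or more were no more frequent than among all genes in BE(2)C, with 5 of the 47 higher (12% of all genes) and none of the 6 that fell lower by that much (16.6% of all genes), while in Kelly 10 were higher (12.1%) and 1, POLR1B, lower (13.4%). All 3 libraries of a line lay above all 3 of SH-SY5Y for 26 genes in Kelly (32.1% of all genes) and for 24 in BE(2)C (31.7%), and below them for 8 in Kelly (31.6%) and for 6 in BE(2)C (34.4%). Both comparisons use the same SH-SY5Y libraries and are therefore not independent of each other. In bulk RNA, a difference in the mix of cells of a line and a difference in RNA per cell cannot be told apart.

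**Figure D1:**
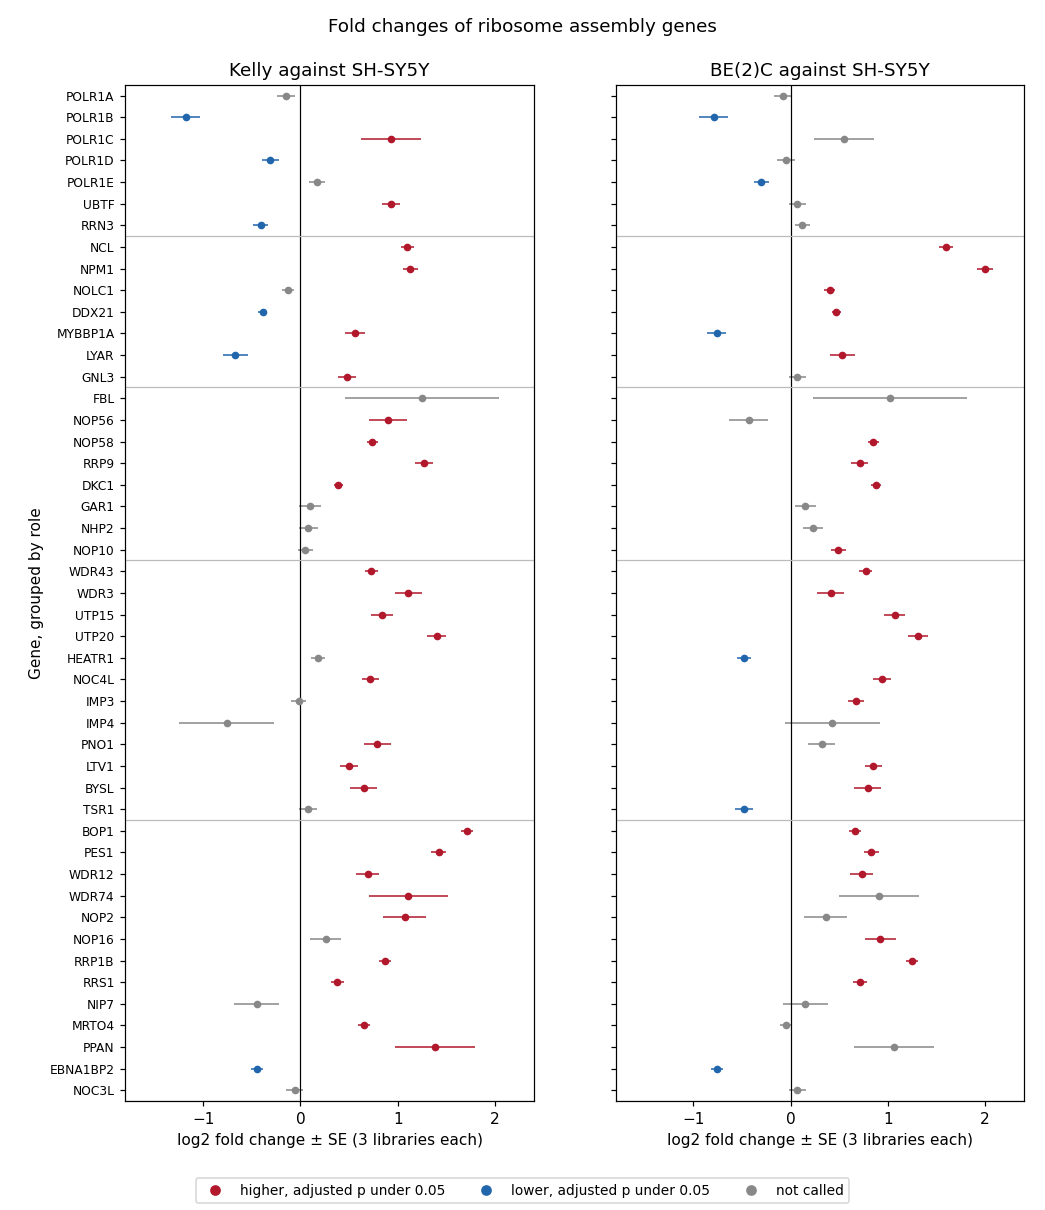
Log2 fold change of each of the 47 genes against SH-SY5Y on the log2(scaled TPM + 1) scale, Kelly in the left panel and BE(2)C in the right, genes grouped by role, each point an estimate from 3 libraries a line with its standard error. Points lie mostly right of 0, with BOP1 at 1.71 the highest in Kelly and NPM1 at 2.00 the highest in BE(2)C, and POLR1B the lowest in both, at -1.18 in Kelly and -0.79 in BE(2)C.

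How many genes counted as higher depended on the scaling. Scaling to library totals alone moved the median of all genes by -0.124 in Kelly and -0.402 in BE(2)C, and it left 26 of the 47 higher and 9 lower in Kelly and 15 higher and 14 lower in BE(2)C. Of all calls among all genes under that scaling, 41.5% were higher in Kelly and 23.6% in BE(2)C, against 50.8% and 48.2% with the trimmed-mean factors. On the values as deposited, with the spike-ins in the total, the median of all genes moved by -0.541 in Kelly and -0.405 in BE(2)C, and 6 of the 47 were higher and 19 lower in Kelly and 5 higher and 14 lower in BE(2)C. There, 12.1% of all calls among all genes were higher in Kelly and 18.2% in BE(2)C. With mitochondrial genes left out of the total and no trimmed-mean factor, the median of all genes moved by -0.125 in Kelly and -0.19 in BE(2)C, 26 of the 47 were higher and 8 lower in Kelly and 21 higher and 10 lower in BE(2)C, and 41.8% of all calls among all genes were higher in Kelly and 36.3% in BE(2)C. Over the 20 settings run, the median of the 47 stood above the median of all genes by 0.41 to 0.59 in Kelly and by 0.37 to 0.63 in BE(2)C. Scalings other than quantile normalization differ by a single factor per library, which shifts genes well above the added 1 nearly alike. That distance could therefore hardly change between trimmed-mean factors, library totals and totals without mitochondrial genes. The values as deposited are far smaller, so the added 1 weighs more and only 10279 genes passed the filter. There the distance was 0.41 in Kelly and 0.40 in BE(2)C. With quantile normalization the distance was 0.43 in Kelly and 0.37 in BE(2)C, against 0.57 and 0.53 with the trimmed-mean factors.

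**Figure D2:**
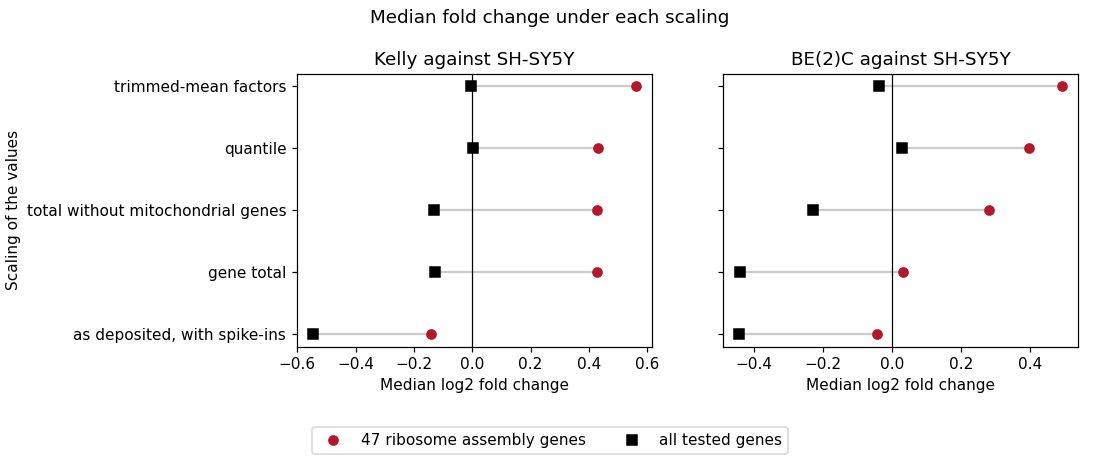
Median log2 fold change against SH-SY5Y of the 47 genes (red circles) and of all genes tested (black squares) under 5 scalings of the values, with Kelly in the left panel and BE(2)C in the right. Scalings other than quantile differ by only a single factor per library, so both medians necessarily move nearly together. The distance between them is 0.37 or more, the smallest being that of BE(2)C with quantile normalization.

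The E-box CACGTG was frequent at the starts of these genes. The reference promoter windows of RefSeq (GRCh38.p14), which run from 250 bases before to 50 bases after the start of transcription, matched 41 of the 47 genes. Those not matched were BOP1, NOLC1, NOP58, POLR1E, RRP1B and RRS1. CACGTG, which reads the same on both strands, lay in the window of 19 of the 41 (46.3%), against 8.77% of the 27305 symbols with a window and 12.7% of the 9937 tested genes with one. Of its 22 matches, 18 lay within 50 bases of the start. The related sequence CACGCG, searched on both strands and sharing no full match with CACGTG, lay in 11 of the 41 (26.8%), against 22.8% of the tested genes. Since the genes were chosen as known MYC-family targets, the share with an E-box describes that choice.

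Windows of 4 genes are shown, each in full on its own strand with the E-box in capitals. UTP20 (chr12:101279855-101280154, plus strand), PES1 (chr22:30591861-30592160, minus strand) and RRP9 (chr3:51941855-51942154, minus strand) rose in both amplified lines. EBNA1BP2 (chr1:43172241-43172540, minus strand) carries the same E-box and fell in both.
UTP20: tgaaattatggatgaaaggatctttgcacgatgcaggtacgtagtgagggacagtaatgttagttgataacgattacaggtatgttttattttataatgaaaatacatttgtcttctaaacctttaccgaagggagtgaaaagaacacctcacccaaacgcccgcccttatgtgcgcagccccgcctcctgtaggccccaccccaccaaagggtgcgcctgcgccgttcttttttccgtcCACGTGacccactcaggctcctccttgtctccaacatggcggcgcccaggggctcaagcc
PES1: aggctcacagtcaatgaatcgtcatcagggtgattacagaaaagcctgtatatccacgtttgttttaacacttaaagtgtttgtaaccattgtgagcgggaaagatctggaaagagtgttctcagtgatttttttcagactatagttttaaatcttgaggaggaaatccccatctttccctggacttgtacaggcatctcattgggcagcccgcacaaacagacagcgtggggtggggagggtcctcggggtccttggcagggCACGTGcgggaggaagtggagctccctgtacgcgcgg
RRP9: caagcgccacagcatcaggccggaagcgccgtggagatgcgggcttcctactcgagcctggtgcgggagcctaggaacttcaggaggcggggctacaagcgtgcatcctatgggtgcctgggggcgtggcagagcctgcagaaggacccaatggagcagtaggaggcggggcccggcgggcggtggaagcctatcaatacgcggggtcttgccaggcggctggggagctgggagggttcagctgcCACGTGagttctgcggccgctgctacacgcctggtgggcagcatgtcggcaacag
EBNA1BP2: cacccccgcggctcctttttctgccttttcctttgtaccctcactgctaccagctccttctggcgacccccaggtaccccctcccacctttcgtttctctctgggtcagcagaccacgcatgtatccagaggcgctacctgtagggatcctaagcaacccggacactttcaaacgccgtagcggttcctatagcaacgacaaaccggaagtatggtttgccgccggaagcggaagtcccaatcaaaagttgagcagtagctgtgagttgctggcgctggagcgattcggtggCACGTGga

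With the start of transcription counted as 0, the E-box begins at -10 in UTP20, at 13 in PES1, at -5 in RRP9 and at 42 in EBNA1BP2. Genes with the E-box and genes without it were higher in like proportions. Among the 19 genes with it, 11 rose in Kelly and 9 in BE(2)C. Among the 22 without it, 12 rose in Kelly and 9 in BE(2)C. The median log2 fold change with and without the E-box was 0.56 and 0.54 in Kelly, and 0.47 and 0.48 in BE(2)C. A match describes the letters of the reference sequence, and binding was not measured.

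Of the 7 nucleolar scaffold proteins and regulators, 4 rose (57.1%, against 28.1% of all genes) and 2 fell (28.6%, against 27.2%) in Kelly. In BE(2)C, 5 rose (71.4%, against 28.6% of all genes) and 1 fell (14.3%, against 30.7%). NPM1 and NCL held the highest levels of the 47 genes in both amplified lines. NPM1, a histone chaperone that gives the nucleolus its granular structure, had 1657, 1924 and 1834 scaled TPM in Kelly and 3676, 3251 and 3011 in BE(2)C, against 841, 816 and 817 in SH-SY5Y. The 3 lines did not overlap, and NPM1 was higher by 1.13 ± 0.08 on the log2 scale in Kelly (SE, adjusted p = 4.66e-06) and by 2.00 ± 0.08 in BE(2)C (adjusted p = 1.21e-07). NCL, nucleolin, an RNA-binding protein of the dense nucleolar zone, had 1069, 1027 and 1027 scaled TPM in Kelly and 1563, 1558 and 1324 in BE(2)C, against 462, 495 and 501 in SH-SY5Y. Its groups were also fully apart, with log2 fold changes of 1.10 ± 0.07 in Kelly (adjusted p = 2.29e-06) and 1.60 ± 0.07 in BE(2)C (adjusted p = 1.86e-07). Reads of NPM1 are uncertain in one respect, since the annotation names 45 NPM1 pseudogenes and the sources used here do not say how such reads were assigned.

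Among the other regulators, some moved in opposite directions in the amplified lines. MYBBP1A, a nucleolar repressor and processing factor, had 141, 139 and 137 scaled TPM in Kelly and 46.4, 57.8 and 61.3 in BE(2)C, against 93.7, 95.8 and 91.8 in SH-SY5Y. Kelly thus lay above SH-SY5Y in every library (log2 fold change 0.56 ± 0.10, adjusted p = 0.000963) and BE(2)C below it in every library (-0.76 ± 0.10, adjusted p = 0.000118). DDX21, an RNA helicase that couples ribosomal DNA transcription to processing, had 173, 171 and 178 scaled TPM in Kelly and 326, 319 and 306 in BE(2)C, against 221, 226 and 238 in SH-SY5Y. LYAR, a nucleolar zinc finger protein, had 28.9, 40.9 and 35.7 scaled TPM in Kelly and 87.1, 84.4 and 73.2 in BE(2)C, against 55.8, 58.1 and 54.7 in SH-SY5Y. Both of these ran the reverse way, lower in Kelly (DDX21 -0.39 ± 0.05, LYAR -0.67 ± 0.13) and higher in BE(2)C (DDX21 0.47 ± 0.05, LYAR 0.53 ± 0.13), with adjusted p from 5.67e-05 to 0.00541. NOLC1, a chaperone of snoRNPs, rose in BE(2)C (0.40 ± 0.06), and its value in Kelly was -0.13 ± 0.06. GNL3, the GTPase nucleostemin, rose in Kelly (0.48 ± 0.09), and its value in BE(2)C was 0.07 ± 0.09. On the values as deposited, the fold changes of MYBBP1A (-0.14) and GNL3 (-0.22) in Kelly and of DDX21 (-0.10), LYAR (-0.036) and NOLC1 (-0.16) in BE(2)C lay on the other side of 0. The calls of DDX21, LYAR and NOLC1 in BE(2)C also ended with library totals alone (0.01, 0.07 and -0.053), and that of LYAR with mitochondrial genes left out of the total (0.32, adjusted p = 0.0522).

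Genes of RNA polymerase I transcription did not lean higher as a group. Of the 7 genes, 2 rose (28.6%) and 3 fell (42.9%) in Kelly, where 28.1% of all genes rose and 27.2% fell. In BE(2)C, 2 fell (28.6%, against 30.7% of all genes) and the other 5 did not pass the test, where 28.6% of all genes rose. The group medians were -0.15 in Kelly and -0.05 in BE(2)C. POLR1B, the second-largest subunit of the enzyme, had 4.97, 4.38 and 5.89 scaled TPM in Kelly and 6.59, 7.25 and 7 in BE(2)C, against 12.1, 13.3 and 12.8 in SH-SY5Y. SH-SY5Y was highest without overlap, and POLR1B fell by 1.18 ± 0.15 on the log2 scale in Kelly (adjusted p = 0.00016) and by 0.79 ± 0.15 in BE(2)C (adjusted p = 0.00167). UBTF, the factor that binds the promoter of the ribosomal DNA and keeps it open, had 63.4, 67.4 and 70.2 scaled TPM in Kelly and 39.4, 33.5 and 36.7 in BE(2)C, against 33.0, 36.8 and 34.0 in SH-SY5Y. Kelly stood apart (0.93 ± 0.09, adjusted p = 2.32e-05), while BE(2)C overlapped SH-SY5Y (0.07 ± 0.09, adjusted p = 0.502).

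RRN3, which brings the polymerase to its promoter, had 40.8, 39.5 and 40.9 scaled TPM in Kelly and 56.1, 61.8 and 59.0 in BE(2)C, against 52.8, 51.1 and 58.5 in SH-SY5Y. It fell in Kelly (-0.41 ± 0.08, adjusted p = 0.00176), and the annotation names 3 pseudogenes of it. POLR1D, a subunit shared with RNA polymerase III, had 135, 140 and 168 scaled TPM in Kelly and 191, 171 and 167 in BE(2)C, against 184, 173 and 189 in SH-SY5Y. Kelly lay below SH-SY5Y in every library by a narrow margin (-0.31 ± 0.09, adjusted p = 0.019), and it overlapped BE(2)C. POLR1C, shared in the same way, had 41.3, 26.8 and 36.9 scaled TPM in Kelly and 31.6, 28.1 and 20.4 in BE(2)C, against 11, 17.9 and 27.5 in SH-SY5Y. Kelly and SH-SY5Y overlapped, and POLR1C passed the test in Kelly (0.93 ± 0.31, adjusted p = 0.0287). POLR1E, a subunit that helps the enzyme engage its template, had 98.9, 98 and 97.6 scaled TPM in Kelly and 78.6, 66.6 and 66.9 in BE(2)C, against 83.3, 86.7 and 91.2 in SH-SY5Y. It fell in BE(2)C (-0.30 ± 0.08, adjusted p = 0.00894). POLR1A, the largest subunit, had 38.6 to 48.4 scaled TPM over the 9 libraries and did not pass the test (adjusted p = 0.196 in Kelly and 0.446 in BE(2)C). It was called lower in both lines with library totals (-0.28 in Kelly and -0.53 in BE(2)C), on the values as deposited (-0.74 and -0.57 in the same order) and with mitochondrial genes left out of the total (-0.28 and -0.29). POLR1D was called lower in BE(2)C under those scalings and with quantile normalization (-0.60 to -0.26). Leaving out a single library ended the call of POLR1C in Kelly without Kelly 1 (0.79, adjusted p = 0.096), Kelly 3 (0.88, 0.0757), SH-SY5Y 1 (0.61, 0.087) or SH-SY5Y 2 (0.94, 0.0613), and that of POLR1D in Kelly without Kelly 1, Kelly 2, SH-SY5Y 1 or SH-SY5Y 3 (-0.30 to -0.26, adjusted p from 0.0544 to 0.0639). On the values as deposited, UBTF (0.21) and POLR1C (0.18) lost their calls in Kelly.

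**Figure D3:**
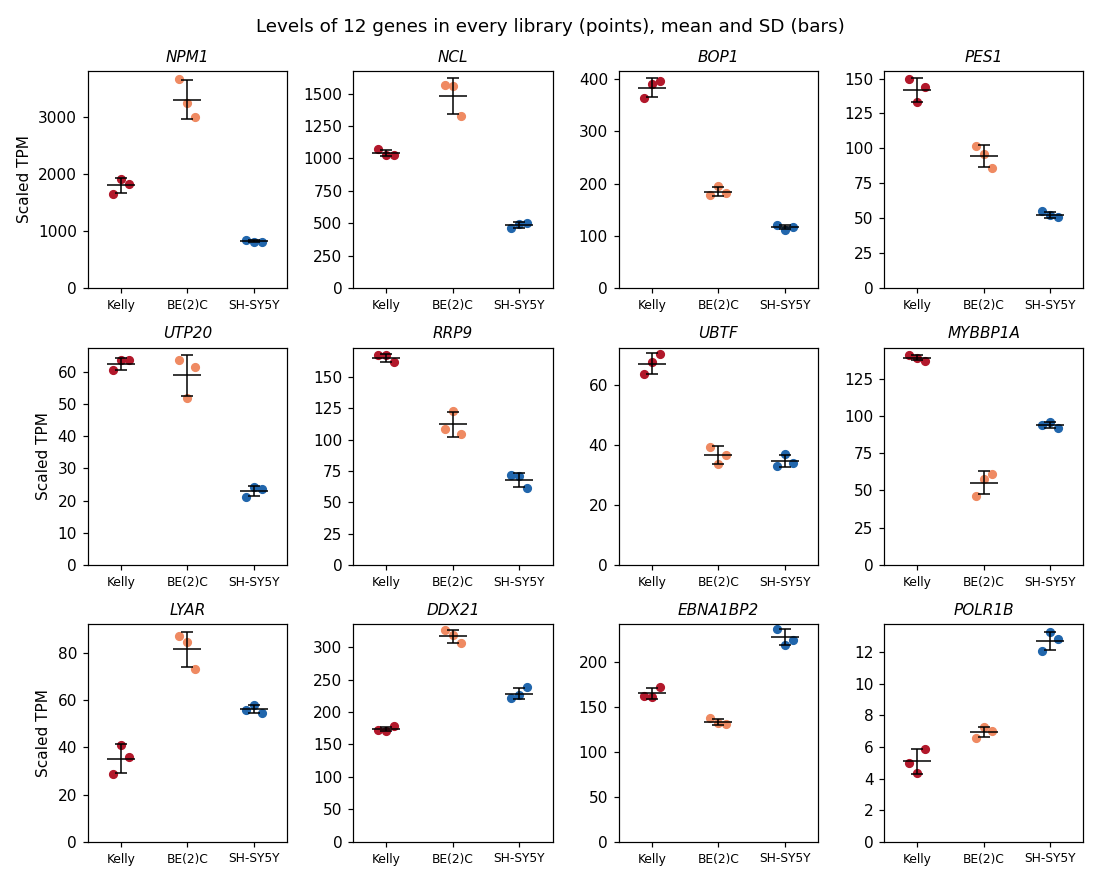
Scaled TPM of 12 of the genes in each library (points) with the mean and SD of each line (n = 3), lines in the order Kelly, BE(2)C and SH-SY5Y, each panel with its own linear axis from 0. The panels were chosen after the values were seen and cover every role, with genes highest in BE(2)C (NPM1, NCL, DDX21, LYAR), genes highest in Kelly (BOP1, PES1, RRP9, UBTF, MYBBP1A) and genes highest in SH-SY5Y (POLR1B, EBNA1BP2).

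In the snoRNP core, 4 of 8 genes rose in Kelly (50%, against 28.1% of all genes) and 4 of 8 in BE(2)C (50%, against 28.6%). In each line the other 4 did not pass the test, where 27.2% of all genes fell in Kelly and 30.7% in BE(2)C. RRP9, a protein bound to the snoRNA that starts the cutting of the precursor, had 167, 167 and 162 scaled TPM in Kelly and 108, 123 and 104 in BE(2)C, against 71.6, 70.9 and 61.2 in SH-SY5Y. The lines were ordered without overlap, by 1.27 ± 0.09 in Kelly (adjusted p = 2.22e-06) and 0.71 ± 0.09 in BE(2)C (adjusted p = 8.38e-05). NOP58, a core protein of the snoRNPs that guide ribose methylation, had 222, 247 and 234 scaled TPM in Kelly and 244, 255 and 257 in BE(2)C, against 142, 140 and 137 in SH-SY5Y. Here the amplified lines lay together above SH-SY5Y (0.74 ± 0.06 in Kelly and 0.85 ± 0.06 in BE(2)C). Its partner NOP56 had 71.6, 68.0 and 73.6 scaled TPM in Kelly and 19.8, 33.9 and 31.7 in BE(2)C, against 44.0, 30.2 and 40.3 in SH-SY5Y. NOP56 rose in Kelly (0.90 ± 0.20, adjusted p = 0.00438), and BE(2)C overlapped SH-SY5Y (-0.43 ± 0.20, adjusted p = 0.0967). In BE(2)C it was called lower with library totals (-0.87), on the values as deposited (-0.83) and with mitochondrial genes left out of the total (-0.64).

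The snoRNPs that guide pseudouridylation have 4 core proteins among the 47. DKC1, dyskerin, the pseudouridine synthase, had 124, 125 and 132 scaled TPM in Kelly and 180, 179 and 176 in BE(2)C, against 96, 97.4 and 97.4 in SH-SY5Y. It rose in both lines (0.39 ± 0.05 in Kelly, adjusted p = 0.00021, and 0.88 ± 0.05 in BE(2)C, adjusted p = 9.37e-07). NOP10 rose in BE(2)C (0.49 ± 0.08, adjusted p = 0.000625), with 0.05 ± 0.08 in Kelly. The fold changes of the partners GAR1 and NHP2 were between 0.08 and 0.23 and did not pass the test in either line. FBL, fibrillarin, the ribose methyltransferase itself, was listed at only 8.83, 2.37 and 11.9 scaled TPM in Kelly and 12.2, 0.885 and 9.65 in BE(2)C, against 1.41, 4.96 and 1.21 in SH-SY5Y. The SD of its libraries was 63.1% of the mean in Kelly and 78.3% in BE(2)C, against 83.5% in SH-SY5Y, and neither difference passed (adjusted p = 0.208 in Kelly and 0.29 in BE(2)C). On the values as deposited, DKC1 (-0.30) and NOP10 (-0.65) in Kelly and NOP10 (-0.079) in BE(2)C lay below 0. There, the calls of NOP56 (0.17) and NOP58 (0.03) in Kelly and of NOP58 (0.27), RRP9 (0.14) and DKC1 (0.29) in BE(2)C ended. NOP10 lost its call in BE(2)C with library totals (0.03) and with quantile normalization (0.13). Leaving out 1 library changed 3 genes in BE(2)C, with FBL called without BE(2)C 2 (1.92, adjusted p = 0.0298), NHP2 without BE(2)C 3 (0.33, 0.00541) and NOP56 without SH-SY5Y 2 (-0.58, 0.0414).

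Small subunit assembly had 8 of 12 genes higher in Kelly (66.7%, against 28.1% of all genes). The other 4 were not called in Kelly, where 27.2% of all genes fell. In BE(2)C, 8 of 12 were higher (66.7%, against 28.6% of all genes) and 2 others fell (16.7%, against 30.7%). The medians were 0.68 in Kelly and 0.72 in BE(2)C. UTP20, a large scaffold of the small subunit processome, had 60.4, 63.7 and 63.5 scaled TPM in Kelly and 63.7, 51.7 and 61.4 in BE(2)C, against 21.2, 24.3 and 23.6 in SH-SY5Y. The amplified lines overlapped each other well above SH-SY5Y (1.40 ± 0.10 in Kelly, adjusted p = 3.06e-06, and 1.31 ± 0.10 in BE(2)C, adjusted p = 4.06e-06). UTP15, a subunit of the complex that joins the precursor early, had 54.2, 47.5 and 46.7 scaled TPM in Kelly and 57.7, 57.6 and 59.1 in BE(2)C, against 26.6, 24.0 and 31.5 in SH-SY5Y. WDR43, which belongs to that same complex, showed a like order, with 150 to 162 scaled TPM in Kelly and 147 to 172 in BE(2)C, against 88.0 to 97.8 in SH-SY5Y. UTP15 (0.84 ± 0.11 in Kelly and 1.07 ± 0.11 in BE(2)C) and WDR43 (0.73 ± 0.07 and 0.77 ± 0.07 in the same order) rose in both lines.

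NOC4L, whose yeast counterpart works with Nop14 on the small subunit, had 79.9, 99.3 and 91.3 scaled TPM in Kelly and 99.6, 106 and 108 in BE(2)C, against 49.8, 55.7 and 57.1 in SH-SY5Y. WDR3, another processome subunit, had 93, 104 and 110 scaled TPM in Kelly and 73.9, 66.7 and 49.7 in BE(2)C, against 52.3, 43.7 and 45 in SH-SY5Y. NOC4L rose in both lines (0.72 ± 0.09 in Kelly and 0.94 ± 0.09 in BE(2)C). WDR3 rose clearly in Kelly (1.11 ± 0.14, adjusted p = 0.000166), and in BE(2)C its libraries overlapped those of SH-SY5Y (0.41 ± 0.14, adjusted p = 0.0347). That call of WDR3 ended without BE(2)C 1 (0.29, adjusted p = 0.115), BE(2)C 2 (0.37, 0.0991), SH-SY5Y 2 (0.36, 0.102) or SH-SY5Y 3 (0.38, 0.0905). The late factors LTV1 and BYSL rose in both lines, LTV1 by 0.50 ± 0.09 in Kelly and 0.85 ± 0.09 in BE(2)C, and BYSL by 0.65 ± 0.14 in Kelly and 0.79 ± 0.14 in BE(2)C. PNO1, their partner on the maturing small subunit, rose in Kelly (0.79 ± 0.14) with 0.32 ± 0.14 in BE(2)C, and IMP3, a protein of the processome, rose in BE(2)C (0.67 ± 0.08) with -0.02 ± 0.08 in Kelly.

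Both genes of this group that fell did so in BE(2)C. HEATR1, a very large processome protein also tied to RNA polymerase I transcription, had 112, 108 and 110 scaled TPM in Kelly and 72.2, 71.4 and 65.3 in BE(2)C, against 90.4, 105 and 97.2 in SH-SY5Y. TSR1, a GTPase-like factor of the late small subunit, had 106, 107 and 118 scaled TPM in Kelly and 78.6, 75.7 and 69.5 in BE(2)C, against 106, 115 and 92.7 in SH-SY5Y. BE(2)C was lowest in every library for both, with a fold change of -0.48 for each (SE 0.07 for HEATR1 and 0.09 for TSR1). IMP4 was listed low, at 1.33 to 8.12 scaled TPM in Kelly and 6.21 to 10.6 in BE(2)C, against 3.72 to 8.45 in SH-SY5Y, and all lines overlapped. Without Kelly 2, its fold change in Kelly passed the test (-1.36, adjusted p = 0.00948). Calls of this group that ended on the values as deposited were, in BE(2)C, WDR43, WDR3, NOC4L, IMP3, LTV1 and BYSL, and in Kelly WDR43, WDR3, UTP15, NOC4L, PNO1, LTV1 (-0.19) and BYSL (-0.050). With library totals alone, WDR3 (-0.042), IMP3 (0.21) and BYSL (0.34) lost their calls in BE(2)C.

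Large subunit assembly had 9 of 13 genes higher (69.2%, against 28.1% of all genes) and 1 lower (7.69%, against 27.2%) in Kelly. In BE(2)C, 6 were higher (46.2%, against 28.6% of all genes) and 1 lower (7.69%, against 30.7%). The medians were 0.69 in Kelly and 0.71 in BE(2)C. BOP1, PES1 and WDR12 form a single complex needed to mature the large subunit RNA. BOP1 had 364, 391 and 397 scaled TPM in Kelly and 178, 195 and 182 in BE(2)C, against 121, 112 and 117 in SH-SY5Y. PES1 had 150, 133 and 144 scaled TPM in Kelly and 102, 95.7 and 86.3 in BE(2)C, against 54.9, 52.4 and 50.6 in SH-SY5Y. Both were ordered Kelly, BE(2)C, SH-SY5Y with no overlap. BOP1 was higher by 1.71 ± 0.06 in Kelly (adjusted p = 5.33e-08) and 0.66 ± 0.06 in BE(2)C (adjusted p = 1.7e-05), and PES1 by 1.42 ± 0.08 in Kelly (adjusted p = 7.8e-07) and 0.83 ± 0.08 in BE(2)C (adjusted p = 2.12e-05). The third partner, WDR12, stood at 35.9 to 39.2 scaled TPM in Kelly and 33.8 to 45 in BE(2)C, against 20.4 to 24.4 in SH-SY5Y, and rose by 0.69 ± 0.12 in Kelly and 0.73 ± 0.12 in BE(2)C. The change of BOP1 in Kelly was the 1 of 33 called changes among the 47 that exceeded the largest spike-in shift of 1.42 between Kelly and SH-SY5Y (that of PES1 was of the same size), and all 29 in BE(2)C exceeded the 0.181 of that comparison. These limits are the most extreme of 61 spike-ins, whose median shift in size was 0.283 for Kelly and 0.0334 for BE(2)C. The called change nearest 0 in BE(2)C was that of POLR1E (-0.30). How many of all called genes exceeded these limits was not computed.

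RRP1B, a nucleolar protein that also takes part in transcription control, had 122, 136 and 133 scaled TPM in Kelly and 177, 171 and 161 in BE(2)C, against 70.1, 71.8 and 70.6 in SH-SY5Y. It rose by 0.87 ± 0.06 in Kelly (adjusted p = 4.56e-06) and by 1.25 ± 0.06 in BE(2)C (adjusted p = 3.93e-07). NOP16 had 42.1, 62.4 and 44.8 scaled TPM in Kelly and 67.9, 88.4 and 79.3 in BE(2)C, against 43.4, 43.0 and 36.2 in SH-SY5Y. BE(2)C stood clear of SH-SY5Y, with a fold change of 0.92 ± 0.16 (adjusted p = 0.000851), and Kelly overlapped it, with 0.26 ± 0.16 (adjusted p = 0.197). PPAN had 15.0, 40.5 and 43.0 scaled TPM in Kelly and 27.8, 26.0 and 18.4 in BE(2)C, against 16.8, 10.7 and 7.01 in SH-SY5Y. Its Kelly libraries overlapped SH-SY5Y (1.38 ± 0.41, adjusted p = 0.0183), and its BE(2)C libraries did not but missed the threshold (1.06 ± 0.41, adjusted p = 0.0502). Reads of PPAN can be shared with the PPAN-P2RY11 readthrough transcript, which ran the other way in BE(2)C. The readthrough was listed at 13.5, 3.3 and 8.22 scaled TPM in Kelly and 8.6, 1.05 and 0.506 in BE(2)C, against 10.9, 11.8 and 16.3 in SH-SY5Y. The sum of both entries was not tested. In BE(2)C, PPAN alone passed the test without Kelly 1, Kelly 3 or SH-SY5Y 1 (1.06 to 1.36, adjusted p from 0.0123 to 0.0474).

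The lone gene of this group that fell in both lines was EBNA1BP2, a factor of early large subunit particles. It had 162, 161 and 172 scaled TPM in Kelly and 137, 132 and 131 in BE(2)C, against 236, 219 and 224 in SH-SY5Y. SH-SY5Y was highest in every library, and EBNA1BP2 fell by 0.45 ± 0.06 in Kelly (adjusted p = 0.00013) and by 0.76 ± 0.06 in BE(2)C (adjusted p = 3.8e-06). RRS1, which helps to place a small ribosomal RNA particle in the large subunit, rose by 0.38 ± 0.07 in Kelly and 0.71 ± 0.07 in BE(2)C. MRTO4, an assembly factor that precedes the stalk proteins, rose in Kelly (0.65 ± 0.06) and was at -0.05 ± 0.06 in BE(2)C, where the other scalings called it lower (-0.51 with library totals, -0.58 as deposited, -0.26 with mitochondrial genes left out and -0.23 with quantile normalization). The RNA methyltransferase NOP2 (1.07 ± 0.22) and WDR74 (1.11 ± 0.41, adjusted p = 0.044) also rose in Kelly, from low levels of 8.43 to 11.6 and 3.17 to 11.3 scaled TPM in SH-SY5Y. NIP7 and NOC3L did not pass the test in either line. On the values as deposited, WDR12 (-0.0015), RRS1 (-0.31) and MRTO4 (-0.060) in Kelly lay below 0, and the calls of WDR74, NOP2, RRP1B and PPAN in Kelly and of BOP1, PES1, WDR12, NOP16 and RRS1 in BE(2)C ended. With library totals alone, WDR12 (0.29) lost its call in BE(2)C and WDR74 (adjusted p = 0.0548) lost its call in Kelly. Leaving out Kelly 1, Kelly 3, BE(2)C 2, SH-SY5Y 1 or SH-SY5Y 2 ended the call of WDR74 in Kelly (0.71 to 1.12, adjusted p from 0.059 to 0.143). That of PPAN in Kelly ended without Kelly 2, Kelly 3 or SH-SY5Y 3 (1.10 to 1.16, adjusted p from 0.0651 to 0.0667).

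**Figure D4:**
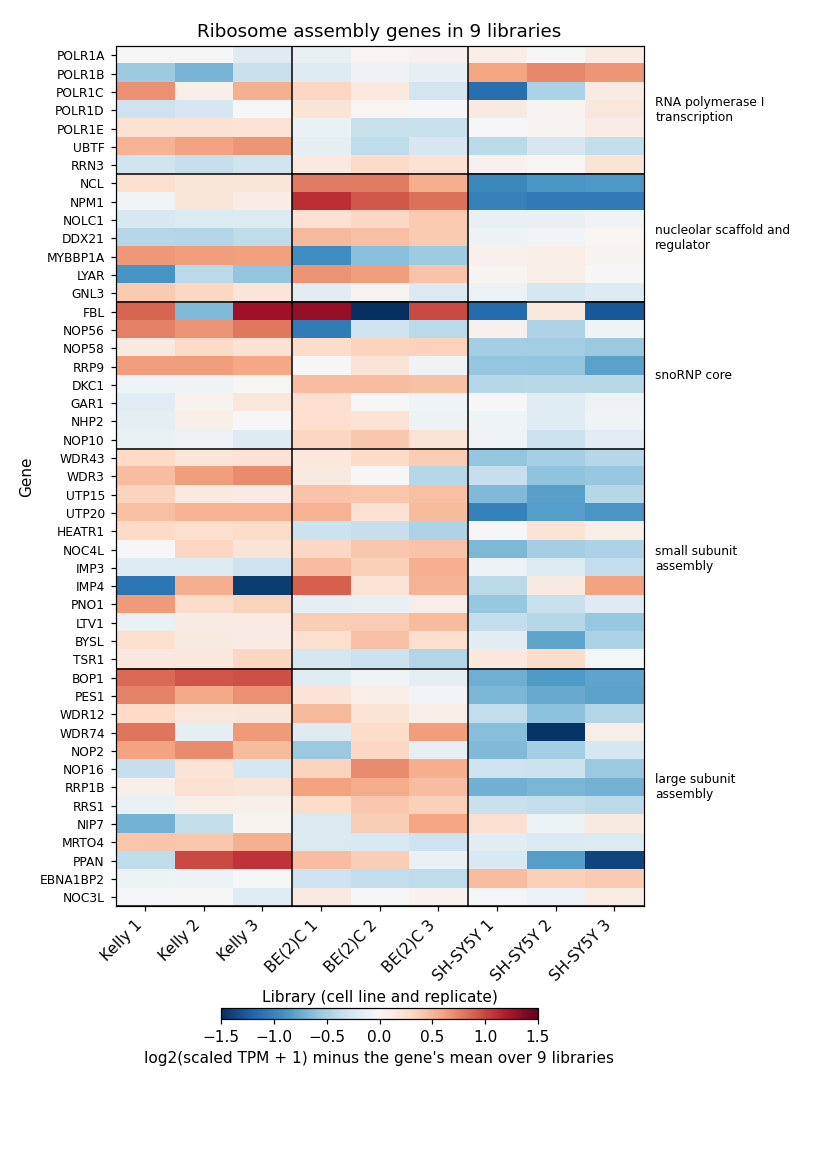
Log2(scaled TPM + 1) of the 47 genes minus each gene's mean over the 9 libraries, libraries ordered Kelly, BE(2)C and SH-SY5Y from left to right, colours cut at 1.5 in either direction. NPM1, NCL, BOP1, PES1, UTP20 and RRP1B are blue (low) in every SH-SY5Y library, POLR1B and EBNA1BP2 are red there, and FBL, IMP4, WDR74 and PPAN vary between libraries of the same line.

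The amplified lines also differed from each other. Kelly exceeded BE(2)C in 15 of the 47 genes and lay below it in 14, where 27.9% of all genes tested were higher in Kelly and 24.6% lower, 52.5% in all. These shares of the 47, 31.9% and 29.8%, are near that background, and the median difference was -0.06, against 0.025 over all genes. Kelly and BE(2)C did not overlap for 15 genes higher in Kelly (30.9% of all genes) and 17 lower (27.4%), and the called difference reached 2-fold for 3 higher (12.8%) and 1 lower (9.54%). Among the called genes, MYBBP1A and NOP56 were the furthest above BE(2)C in Kelly, each by 1.33 (SE 0.10 for MYBBP1A and 0.20 for NOP56), followed by BOP1 (1.05 ± 0.06, adjusted p = 1.39e-06) and UBTF (0.86 ± 0.09, adjusted p = 4.81e-05). Of the called genes, LYAR was the furthest below (-1.20 ± 0.13, adjusted p = 4.68e-05), followed by NPM1 (-0.87 ± 0.08, adjusted p = 2.98e-05), DDX21 (-0.86 ± 0.05, adjusted p = 1.86e-06) and IMP3 (-0.69 ± 0.08, adjusted p = 0.000135). MYBBP1A and NOP56 were the 2 called genes of the 47 whose difference exceeded the largest spike-in shift of 1.24 between Kelly and BE(2)C. The median spike-in shift in size was 0.272 there, and the share of all called genes beyond 1.24 was not computed. By role, the scaffold proteins and regulators leaned to BE(2)C, with 2 higher and 5 lower in Kelly and a median of -0.53, while medians of the other roles lay between -0.09 and 0.20. In that group the calls of NCL (-0.18) and NOLC1 (-0.21) ended with library totals alone. With library totals alone, 17 of the 47 were higher in Kelly and 4 lower, POLR1D (0.065) and WDR43 (0.28) changed direction, and 74.3% of all calls among all genes were higher in Kelly, against 53.2% with the trimmed-mean factors. The call of POLR1D between Kelly and BE(2)C (-0.26, adjusted p = 0.0417) ended without any single library other than Kelly 3 and BE(2)C 3.

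Ordered by mean level, 16 of the 47 genes ran BE(2)C, Kelly, SH-SY5Y from high to low, and 13 ran Kelly, BE(2)C, SH-SY5Y. These orders use the means alone, whether or not a difference passed the test, and their share among all genes was not computed. SH-SY5Y held the highest mean for POLR1A, POLR1B, POLR1D and EBNA1BP2, though for POLR1A and POLR1D the libraries of BE(2)C and SH-SY5Y overlapped. Summed, the 47 genes came to 7919 ± 240 scaled TPM in Kelly and 9907 ± 575 in BE(2)C, against 5282 ± 100 in SH-SY5Y (SD, n = 3 each). NCL and NPM1 made up 35.7% to 36.4% of that sum in Kelly and 46.7% to 50.4% in BE(2)C, against 24.3% to 25.4% in SH-SY5Y. Without them, the other 45 summed to 5073 ± 133 scaled TPM in Kelly and 5112 ± 151 in BE(2)C, against 3972 ± 102 in SH-SY5Y, so Kelly and BE(2)C differed in the sum by less than their spread. Within a line, the median spread of a gene between libraries was 5.99% of its mean in Kelly and 8.18% in BE(2)C, against 6.93% in SH-SY5Y.

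Other ribosome assembly genes leaned the same way with smaller medians. They were 139 genes named from general knowledge of the pathway, with earlier results of these data known, and 137 of them were tested. In Kelly, 59 rose and 21 fell (43.1% and 15.3%, against 28.1% and 27.2% of all genes), with a median log2 fold change of 0.20. In BE(2)C, 65 rose and 17 fell (47.4% and 12.4%, against 28.6% and 30.7% of all genes), with a median of 0.31. Among called genes with at least 10 scaled TPM in the higher line, the largest changes in Kelly were POLR2F (2.43), RRP7A (2.43) and TBL3 (1.47) among those higher, and NIFK (-1.29), DDX18 (-1.04) and NSA2 (-0.98) among those lower. In BE(2)C they were POLR2F (1.91), RRP7A (1.56) and PWP2 (1.55), and TAF1A (-1.81), FTSJ3 (-1.37) and NIFK (-0.90). POLR2F is a subunit shared by all nuclear RNA polymerases, TAF1A belongs to the factor that selects the RNA polymerase I promoter, and NIFK, DDX18, NSA2 and FTSJ3 act on the large subunit. The other RNA polymerase I genes had 4 higher (26.7%) and 4 lower (26.7%) of 15 tested in Kelly, near the shares of all genes. In BE(2)C, 7 were higher (46.7%) and 4 lower (26.7%). Their medians were -0.07 in Kelly and 0.13 in BE(2)C. Between the amplified lines, by the same limit on level, TAF1A (1.15), UTP6 (1.14) and NOL9 (1.07) were the furthest above BE(2)C in Kelly, and PWP2 (-2.28), DHX37 (-1.29) and NSA2 (-1.29) the furthest below.

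Some of the 47 genes carry snoRNAs, a class that includes the guide RNAs of ribosomal RNA modification, inside their bodies. The related small Cajal body RNAs were counted as snoRNAs here. By the GENCODE 29 annotation, 9 of them (POLR1C, NCL, GNL3, NOP56, NOP58, DKC1, WDR43, TSR1 and PPAN) hold 28 snoRNA genes on their own strand, which is 19.1% of the 47 against 1.74% of the 12556 tested genes found in the annotation. Of these 9 host genes, 8 rose in Kelly, where 27 of the 47 and 28.1% of all genes rose. The 8 include POLR1C and PPAN, whose Kelly libraries overlapped SH-SY5Y and whose calls ended when certain single libraries were left out. In BE(2)C, 4 of the 9 host genes rose and 1, TSR1, fell. There 23 of the 47 rose and 6 fell, a like share, and 28.6% of all genes rose and 30.7% fell. The median log2 fold change of the host genes was 0.74 in Kelly and 0.77 in BE(2)C, against 0.44 in Kelly and 0.45 in BE(2)C for those of the 47 without a snoRNA. The snoRNAs themselves were not analysed here. On GRCh38 the annotation places NPM1 at chr5:171387116-171411137 (plus strand), NCL at chr2:231453531-231483641 (minus strand), BOP1 at chr8:144262102-144291370 (minus strand), MYBBP1A at chr17:4538897-4555631 (minus strand) and POLR1B at chr2:112541915-112577150 (plus strand). Of the 47, 24 overlap the body of another coding gene and 10 have named pseudogenes, 64 in all, and the sources used here do not say whether strand was used in the quantification.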

How the data were processed

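Poly(A) RNA of Kelly, BE(2)C and SH-SY5Y cells was sequenced, with 3 libraries a line. The deposited table holds log10 values per gene symbol, which back-transform as log10(TPM + 1) to nearly the full TPM total in each library. Per the submitters' processing notes, the GRCh38 build was used with HISAT 0.1.6 and Salmon 0.3.2, whose roles the notes do not give. The sources used here do not say how transcript values became gene values. Library depth is unknown from TPM, and counting intervals were not computed. Of 19837 entries, 92 ERCC spike-ins, 11 reporter or selection markers and 28 calendar dates were left out of the tests. The number of columns of values not used is 0.

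Spike-ins took most of each total (83.7% to 90.6%). Gene values were therefore rescaled to the gene total and divided by unweighted trimmed-mean factors (0.758 to 1.17, trimming 30% of log ratios and 5% of levels). Limma 3.58.1 in R 4.3.3 was run with its trend method on log2(scaled TPM + 1) over all 9 libraries, without a block, for the 13076 genes that reached 1 in 3 or more libraries. Such a fold change understates the change of low genes. Benjamini-Hochberg adjustment ran over all tested genes, two-sided, at 0.05. The code was tested on simulated data. Alternatives changed the scaling, the pseudocount (0.1), the filter (none, or 10), the libraries in the fit, a replicate block, and each library in turn.

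Values in each library are given for up to 3 called genes a role and direction with the largest change and at least 10 scaled TPM in the higher line, for each gene that fell, and for a few others chosen after their values were seen (WDR43, WDR12, IMP4, FBL, POLR1A and ranges for NOP2 and WDR74). The 47 genes, their roles, the 139 other assembly genes and the marker lists were chosen with earlier results of these data known.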

Additional observations from a re-analysis of the deposited data

Results flagged for a closer look

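Of the 47 genes, 3 passed the test in opposite directions in Kelly and in BE(2)C relative to SH-SY5Y, and each was drawn out because the direct test between Kelly and BE(2)C also passed. The share of such genes among all genes tested was not computed, so the count cannot be read as particular to the 47. MYBBP1A differed by 1.33 ± 0.10 on the log2 scale (SE, limma adjusted p = 5.18e-06), with 139 ± 1.91 scaled TPM in Kelly and 55.2 ± 7.79 in BE(2)C, on either side of 93.8 ± 2.01 in SH-SY5Y (SD, n = 3 each). DDX21 differed by -0.86 ± 0.05 (adjusted p = 1.86e-06), with 174 ± 3.21 scaled TPM in Kelly and 317 ± 10.2 in BE(2)C, on either side of 228 ± 8.54 in SH-SY5Y. LYAR differed by -1.20 ± 0.13 (adjusted p = 4.68e-05), with 35.2 ± 6.06 scaled TPM in Kelly and 81.6 ± 7.42 in BE(2)C, on either side of 56.2 ± 1.71 in SH-SY5Y. In these 3 genes every library of Kelly and of BE(2)C lay on its own side of all SH-SY5Y libraries, and all comparisons with SH-SY5Y share its libraries. The values of DDX21 and LYAR in BE(2)C and of MYBBP1A in Kelly changed side on the values as deposited.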

How the results depend on the processing

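The count of genes higher among the 47 moved with the scaling. In BE(2)C against SH-SY5Y, 15 rose and 14 fell with library totals alone, 5 rose and 14 fell on the values as deposited, and 10 fell with mitochondrial genes left out of the total. Of all calls among all genes, 23.6%, 18.2% and 36.3% were higher in BE(2)C under these scalings, in the same order. In Kelly against SH-SY5Y, 6 rose and 19 fell on the values as deposited, where 12.1% of all calls among all genes were higher. Between Kelly and BE(2)C, 4 were lower with library totals, where 74.3% of all calls among all genes were higher in Kelly. Leaving out each library in turn gave 24 to 28 higher and 5 to 7 lower in Kelly, 22 to 25 higher and 6 to 7 lower in BE(2)C, and 13 to 15 higher and 13 to 16 lower between Kelly and BE(2)C. Over those runs, the higher share of all calls among all genes was 48.2% to 53.5% in Kelly and 47.3% to 50.5% in BE(2)C. For Kelly against BE(2)C that share was 51% to 54.4%.

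Log2 fold changes in BE(2)C changed sign with library totals for UBTF (-0.37), RRN3 (-0.33), NOLC1 (-0.053), GNL3 (-0.39), WDR3 (-0.042) and NOC3L (-0.38). On the values as deposited they did so for UBTF (-0.41), RRN3 (-0.40), NOLC1 (-0.16), DDX21 (-0.10), LYAR (-0.036), GNL3 (-0.48), NOP10 (-0.079), WDR3 (-0.14) and NOC3L (-0.43), and with quantile normalization for NHP2 (-0.20). In Kelly, the values as deposited turned POLR1E (-0.50), MYBBP1A (-0.14), GNL3 (-0.22), DKC1 (-0.30), GAR1 (-0.56), NHP2 (-0.63), NOP10 (-0.65), HEATR1 (-0.50), LTV1 (-0.19), BYSL (-0.050), TSR1 (-0.59), WDR12 (-0.0015), RRS1 (-0.31) and MRTO4 (-0.060), and quantile normalization turned NOP10 (-0.19). Between Kelly and BE(2)C, library totals turned POLR1D (0.065) and WDR43 (0.28). Some genes that were not called in Kelly were called lower there under other scalings: NOLC1 with library totals (-0.26), as deposited (-0.77), with mitochondrial genes left out (-0.26) and with quantile normalization (-0.24), NIP7 with library totals (-0.58) and as deposited (-1.05), and IMP3 (-0.69), IMP4 (-0.55) and NOC3L (-0.66) as deposited. Beyond the scaling, the cause was not tested.

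Replicate numbers did not pair the libraries: deviations from the line means correlated at -0.0545 to 0.0266 for the 9 pairs with the same number and at -0.0383 to 0.0407 for the 18 with different numbers. With the replicate number as a block, 26 rose and 6 fell in Kelly, 24 rose and 6 fell in BE(2)C, and 15 were higher and 15 lower between Kelly and BE(2)C. Of all calls among all genes with the block, 50.7% were higher in Kelly, 48.3% in BE(2)C and 52.9% in Kelly against BE(2)C.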
